A study of Mus musculus with 16 samples.

Results

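Sterol and fatty acid synthesis was followed through 37 genes in chondrocyte-enriched cells that carried a gain-of-function *Notch2* allele or not and were exposed to TNFα or vehicle. The genes were picked by symbol for their place in the pathway, with earlier results of these data known. Each was found among the 55414 gene identifiers of the count tables and had enough counts to be tested in every comparison. They held 0.30% of all counts. They fall into 4 classes: 19 genes of sterol synthesis and its transport, 8 genes of fatty acid synthesis, 5 genes for sterol regulatory element-binding proteins (SREBPs) and the proteins that hold them back, and 5 genes of the liver X receptor (LXR) pathway.

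As background, cells make cholesterol from acetyl-CoA through mevalonate, isoprenoids, squalene and lanosterol, and fatty acids from the same acetyl-CoA through malonyl-CoA. The genes of both branches are transcribed under SREBP2 and SREBP1, which are kept in the endoplasmic reticulum by SCAP and INSIG proteins when sterol is plentiful and are cut free in the Golgi when it is scarce. LXRs are nuclear receptors that respond to oxidized sterols and raise the export of cholesterol, so both systems act in opposite senses on cellular sterol. In cartilage, cholesterol handling matters for the growth plate, where loss of sterol synthesis enzymes disturbs skeletal growth.

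The cells came from the epiphyses of long bones of mice 3 to 4 days old, and male and female cells were pooled. *Notch2tm1.1Ecan* mice were heterozygous for an allele with a stop codon that leaves NOTCH2 without its PEST domain and therefore stable, and the controls were wild type littermates. The allele is global, so every cell type in the dish carried it. Each genotype was cultured with vehicle or with 50 ng/ml of TNFα and harvested after 6 h, with 4 libraries per group and 16 in all. The labels name the libraries biological replicates and do not say how many animals each one holds, so the p-values measure the spread between these libraries. The labels give removal of serum for the TNFα groups, while the study's own description of the experiment gives serum-free medium for both treatments. Serum carries lipoproteins, so in the comparisons of TNFα with vehicle an effect of serum removal cannot be told apart from one of TNFα. Both genotypes had the same medium within a treatment.

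The libraries held between 3439726 and 44237300 counts in genes, with a median of 17062419, and values are given as CPM, counts scaled to a common library size. *Notch2tm1.1Ecan* TNFα replicate 4 was the shallowest, and the next had 12552727. On the first principal component (75.5% of the variance) control vehicle replicate 4 lay at -15.5, between the other vehicle libraries (-60.0 to -57.7) and the TNFα libraries (41.2 to 57.5), and the summed level of 8 TNFα response genes was 1133 CPM in it against 104 to 124 CPM in the other 7 vehicle libraries. Control TNFα replicate 4 was the TNFα library at 41.2, and the others lay at 53.4 to 57.5. On the second component (7.46% of the variance) *Notch2tm1.1Ecan* TNFα replicate 4 lay at -40.1, and the others of its group at -11.4 to -10.9. Results are therefore also given without the replicates numbered 4 where that changes them. Chondrocyte marker genes were abundant in all groups, with 11 of 11 detected, and their summed level was 46650 to 50300 CPM in control vehicle, 29270 to 35030 in *Notch2tm1.1Ecan* vehicle, 33430 to 39260 in control TNFα and 18710 to 20570 in *Notch2tm1.1Ecan* TNFα. *Notch2* itself, whose transcript the allele leaves in place, differed between genotypes by a log2 fold change of 0.23 ± 0.11 (SE), adjusted p = 0.283, with vehicle and 0.53 ± 0.12 (SE), adjusted p = 0.0178, with TNFα, the latter passing neither without *Notch2tm1.1Ecan* TNFα replicate 3 (0.48, adjusted p = 0.0567) nor without its replicate 4 (0.50, adjusted p = 0.108). Here and below, a gene passed at a Benjamini-Hochberg adjusted p under 0.05 over all genes tested, by edgeR's quasi-likelihood test.

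Levels between genes were compared as mean CPM per kb of transcript in control vehicle cells. The most abundant members were the desaturase *Scd2* (89.8 CPM per kb), the desaturase *Fads1* (51.8), *Acly*, which makes cytosolic acetyl-CoA (50.8), *Scd1* (47.6), *Fads2* (41.9), the lipoprotein gene *Apoe* (40.8), *Srebf1* (39.3) and *Srebf2* (32.6). Within sterol synthesis, *Sqle*, the squalene epoxidase, had 28.3 CPM per kb and *Hmgcs1*, which makes HMG-CoA, had 19.5. The lowest levels were those of *Abcg1* (0.484), *Fdps* (1.88), *Nr1h3*, which encodes LXRα (3.50), *Abca1* (3.61) and *Tm7sf2* (3.68).

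**Figure D1:**
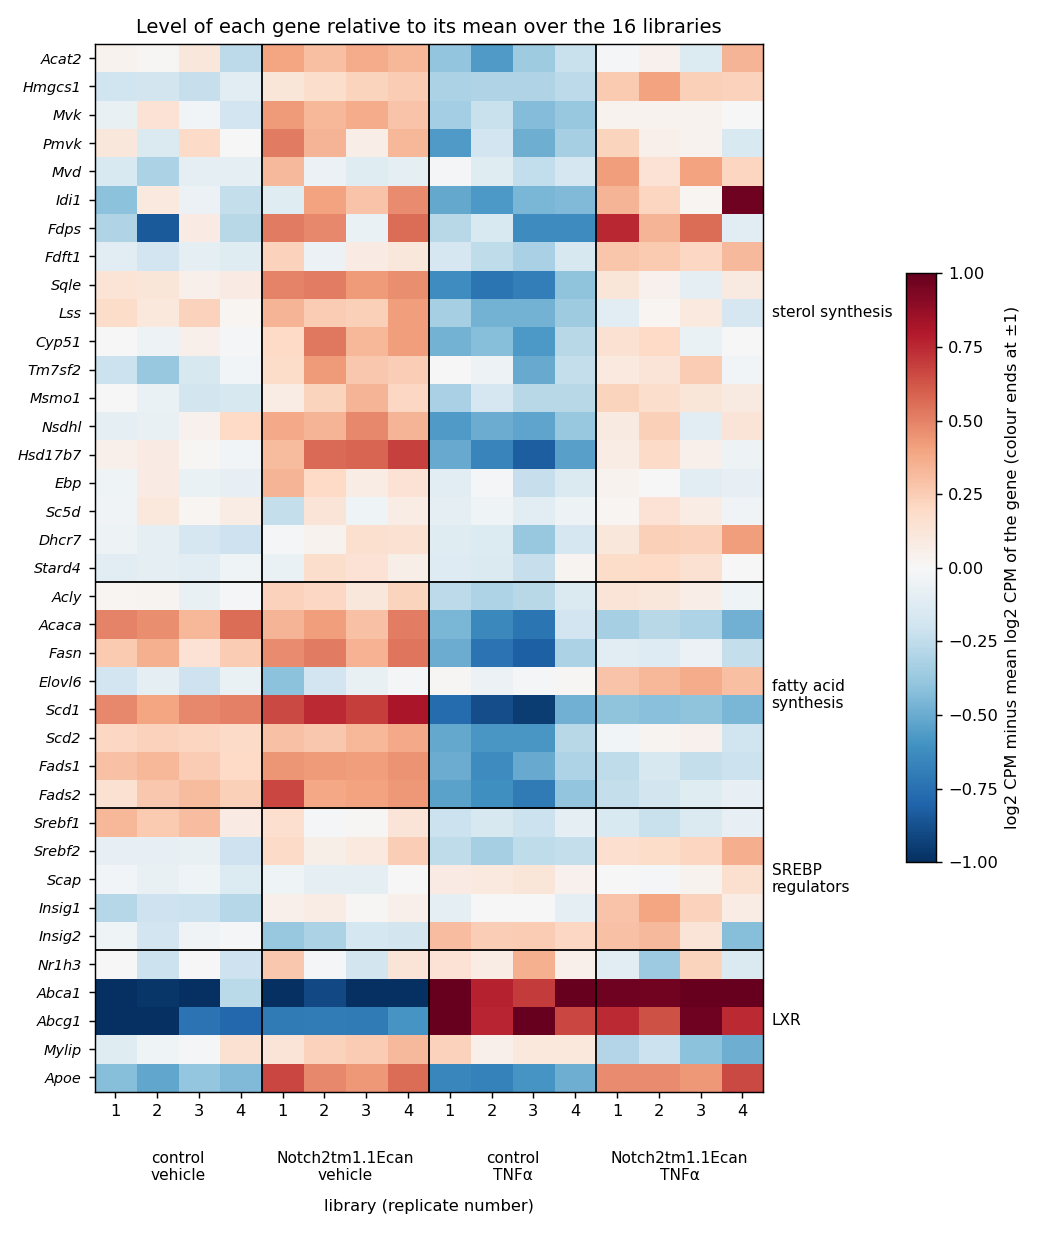
Level of each of the 37 genes in each of the 16 libraries, as log2 CPM minus the gene's own mean over the libraries (colour, ending at -1 and 1); genes are grouped by class and libraries by group and replicate number. Most sterol genes are lowest in the control TNFα libraries, while *Abca1* and *Abcg1* are high in all 8 TNFα libraries and *Apoe* in all 8 *Notch2tm1.1Ecan* libraries.

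Promoters of sterol genes can carry a sterol regulatory element (SRE) and a CCAAT box, the word bound by NF-Y. Promoter sequences are therefore shown for *Hmgcs1*, *Mvk*, *Hsd17b7*, *Srebf2* and *Mylip*. Each of them holds a CCAAT box, so they do not stand for all 37 genes. Where a gene had several promoter entries, the entry with the most matches is shown. The RefSeq promoter table (GRCm38.p6, 250 bases before to 50 after each gene start) held 29 of the 37 genes; *Sqle*, *Fdps*, *Fdft1*, *Stard4*, *Scd1*, *Scd2*, *Fads1* and *Abcg1* have no entry in it. Both strands were searched for 3 words: TCACNCCAC for the SRE, CCAAT for NF-Y, and, for an LXR element, AGGTCA and again AGGTCA after any 4 bases. The words do not overlap one another in the stretches below. The sequences are the 150 bases just before the gene start, written 5′ to 3′ on the strand of the gene, with SRE and CCAAT words in capitals (CCAAT on the other strand reads ATTGG).
*Hmgcs1*, chr13:119690201-119690350, plus strand: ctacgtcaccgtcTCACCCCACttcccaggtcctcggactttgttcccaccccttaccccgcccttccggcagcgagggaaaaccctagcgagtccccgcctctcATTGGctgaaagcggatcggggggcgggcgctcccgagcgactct
*Mvk*, chr5:114444119-114444268, plus strand: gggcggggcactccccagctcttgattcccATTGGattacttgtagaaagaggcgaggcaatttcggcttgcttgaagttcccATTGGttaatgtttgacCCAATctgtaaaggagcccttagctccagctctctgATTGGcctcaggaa
*Hsd17b7*, chr1:169969206-169969355, minus strand: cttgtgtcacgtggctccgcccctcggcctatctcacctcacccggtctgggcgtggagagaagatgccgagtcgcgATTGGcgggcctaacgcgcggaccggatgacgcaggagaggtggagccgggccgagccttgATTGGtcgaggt
*Srebf2*, chr15:82147119-82147268, plus strand: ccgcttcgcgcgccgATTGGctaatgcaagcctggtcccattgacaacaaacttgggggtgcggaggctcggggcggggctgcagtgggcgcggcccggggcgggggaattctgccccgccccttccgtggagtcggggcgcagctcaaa
*Mylip*, chr13:45389592-45389741, plus strand: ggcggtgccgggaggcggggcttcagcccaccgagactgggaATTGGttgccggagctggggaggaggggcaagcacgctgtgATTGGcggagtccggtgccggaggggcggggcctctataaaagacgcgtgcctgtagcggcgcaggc

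*Hmgcs1* was the only gene of the 29 with the SRE word, which starts at base -137, with a CCAAT word at -45; 1.44% of the 27025 genes of the table hold the SRE word in a window of this length. *Mvk*, the mevalonate kinase gene, had 4 CCAAT words in the stretch shown, at -120, -67, -50 and -14. *Hsd17b7*, a sterol reductase, had them at -73 and -12, and *Srebf2* at -135. The CCAAT word was found in the 300-base window of 21 of the 29 genes, against 41.1% of all genes in the table. It was present in 14 of 15 sterol genes, in 4 of 5 SREBP regulator genes, in 2 of 5 fatty acid genes and in 1 of 4 LXR genes, the last being *Mylip*. The LXR word was in none of the 29 and in 4 genes of the whole table. These matches describe letters in a window, and the absence of a word says only that those letters are not there.

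With vehicle, sterol and fatty acid synthesis genes were higher in *Notch2tm1.1Ecan* than in control cells. Of the 37 genes, 21 passed the test as higher and 0 as lower, and the median log2 fold change over all 37 was 0.23, beside -0.002 over the 19432 genes tested. Of all those genes 10.5% passed the test (6.19% higher, 4.35% lower). At an unadjusted p under 0.05, 27 of the 37 genes were higher and 2 lower, where 21.7% of all genes were below that p, and DESeq2 called 21 higher and 0 lower, where it called 10.9% of all genes. With TNFα, 26 were higher and 1, *Mylip*, was lower, with a median of 0.40 beside -0.012 over all 19227 genes tested, where 9.94% passed (5.63% higher, 4.31% lower), 21.4% were under an unadjusted p of 0.05 and DESeq2 called 9.78%. The 4 libraries of a group did not overlap with those of the other in 21 of the 37 genes with vehicle and in 27 with TNFα, and over all genes this held in 16.1 and 15.3%. The changes were moderate, and a log2 fold change of 1 or more was reached in neither comparison by any member except *Apoe* with TNFα, beside 1.26 and 1.41% of all genes that passed with a change of that size. In bulk RNA, a change in the share of a cell type and a change in the RNA per cell cannot be told apart, and the levels of cell type markers are given after the genotype results.

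The vehicle and TNFα comparisons between genotypes share no library. The labels do not say how many animals each library holds, so cultures of both treatments may share animals. A difference between the starting cells of the genotypes would appear in both comparisons. Of the 37 genes, 19 were higher in both, which is 51.4% of them, while 3.16% of the 18376 genes tested in both comparisons were higher in both. Since the genes were chosen with earlier results of these data known, this contrast is not a test of the set. The 19 were *Acat2*, *Hmgcs1*, *Mvk*, *Idi1*, *Fdps*, *Fdft1*, *Sqle*, *Cyp51*, *Msmo1*, *Nsdhl* and *Hsd17b7* of sterol synthesis, *Acly*, *Fasn*, *Scd1*, *Fads1* and *Fads2* of fatty acid synthesis, *Srebf2*, *Insig1* and *Apoe*. None was lower in both, which compares with 2.28% of all genes, and *Mylip* changed in opposite directions. Without control vehicle replicate 4, 19 genes were higher and 1 lower with vehicle, and without control TNFα replicate 4, 27 were higher and 1 lower with TNFα. Without *Notch2tm1.1Ecan* TNFα replicate 4 the counts with TNFα were 26 higher and 1 lower. Leaving out single libraries gave 14 called genes without control vehicle replicate 1 and 25 without *Notch2tm1.1Ecan* vehicle replicate 1, the lowest and the highest count with vehicle.

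**Figure D2:**
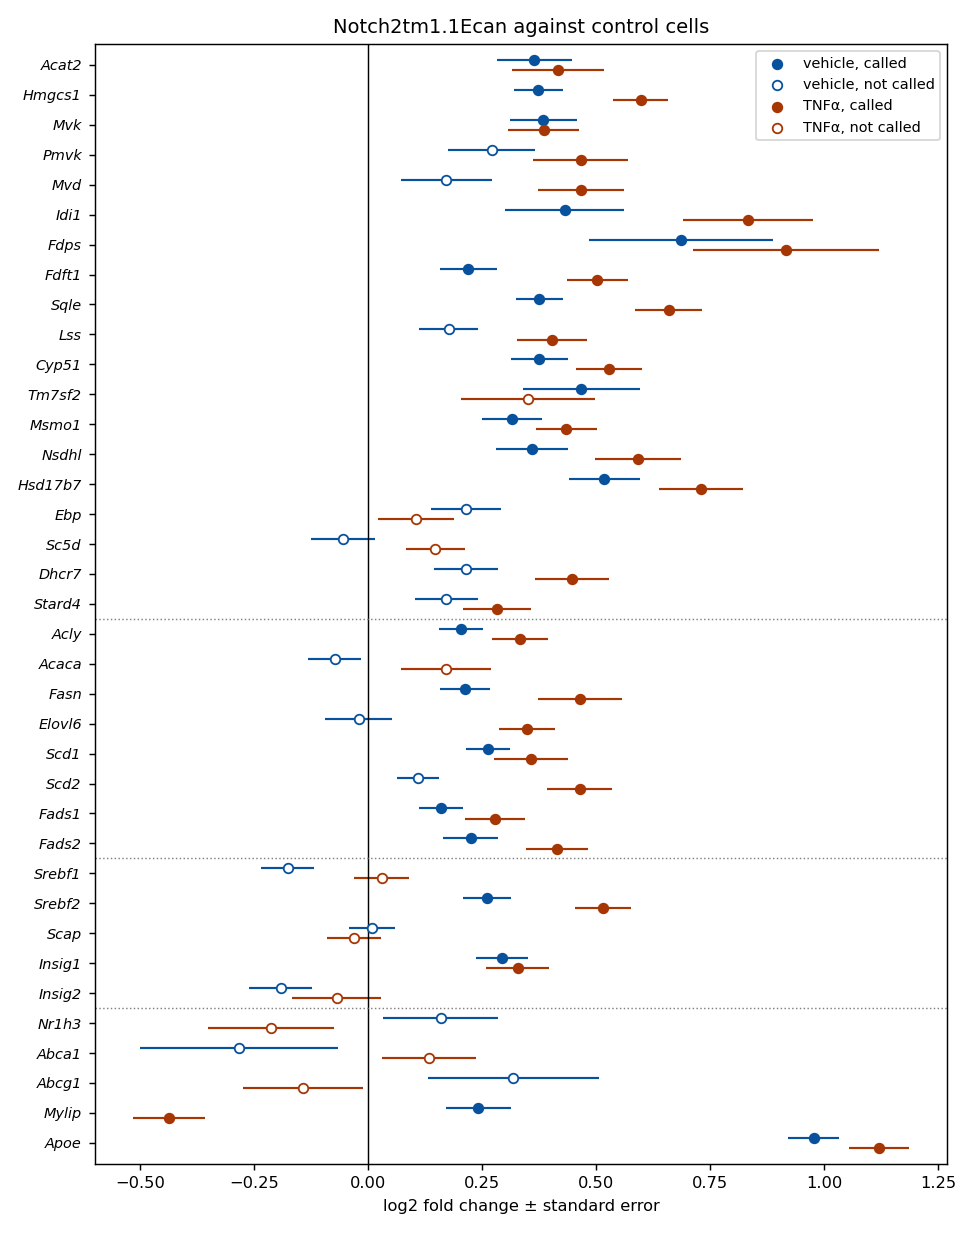
Log2 fold change of *Notch2tm1.1Ecan* against control cells ± SE for the 37 genes, with vehicle (blue) and with TNFα (red), from 4 libraries per group; filled points passed the test (adjusted p under 0.05) and open points did not. The 19 sterol genes lie to the right of 0 with TNFα, and *Apoe* is the farthest right in both treatments, while *Mylip* lies on opposite sides of 0.

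Among the 19 sterol genes, 12 were higher in *Notch2tm1.1Ecan* cells with vehicle (log2 fold changes of 0.22 to 0.69, median of all 19 0.36) and 16 with TNFα (0.28 to 0.92, median of all 19 0.47). With TNFα the estimate was positive in 19 of 19. At the head of the pathway, *Acat2*, which condenses acetyl-CoA, measured 20.6 ± 2.25 CPM in control and 26.6 ± 0.739 in *Notch2tm1.1Ecan* cells with vehicle (SD, n = 4). *Hmgcs1* measured 79.8 ± 2.97 and 103 ± 4.04 CPM with vehicle, and 73.6 ± 1.14 and 110.0 ± 6.25 CPM with TNFα. Its log2 fold changes were 0.37 ± 0.054 (SE), adjusted p = 2.75e-05, and 0.60 ± 0.060 (SE), adjusted p = 3.78e-08. The control libraries of both treatments lay below every *Notch2tm1.1Ecan* library for *Hmgcs1*.

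Of the 5 genes from mevalonate to farnesyl diphosphate, 3 were higher in *Notch2tm1.1Ecan* than in control cells with vehicle and 5 with TNFα. *Mvk* differed by 0.38 ± 0.074 (SE), adjusted p = 0.000819, with vehicle and by 0.39 ± 0.077 (SE), adjusted p = 0.000935, with TNFα. *Pmvk* and *Mvd*, the next 2 enzymes, passed with TNFα (0.47 ± 0.10 and 0.47 ± 0.094) and not with vehicle, where their log2 fold changes were 0.27 ± 0.095 and 0.17 ± 0.099. *Idi1*, the isopentenyl diphosphate isomerase (chr13:8935537-8942487 of GRCm39), measured 8.24, 11.7, 10.5 and 9.28 CPM in control and 10.1, 14.4, 13.3 and 15.1 CPM in *Notch2tm1.1Ecan* cells with vehicle, and 7.64, 7.33, 7.97 and 8.06 against 13.8, 12.7, 11.1 and 21.4 CPM with TNFα. The groups overlapped with vehicle and not with TNFα, where the shallow replicate 4 was the highest. The log2 fold change was 0.43 ± 0.13 (SE), adjusted p = 0.0367, with vehicle and 0.83 ± 0.14 (SE), adjusted p = 0.000169, with TNFα. *Fdps*, which makes farnesyl diphosphate, measured 2.45, 1.68, 3.20 and 2.49 CPM in control and 4.32, 4.21, 2.88 and 4.45 CPM in *Notch2tm1.1Ecan* cells with vehicle, and 2.50, 2.72, 1.95 and 1.95 against 5.08, 3.83, 4.43 and 2.78 CPM with TNFα. The groups overlapped with vehicle and not with TNFα. Its log2 fold changes of 0.69 ± 0.20 and 0.92 ± 0.20 were the largest of the sterol genes, and they rest on 930 counts in all 16 libraries. The vehicle calls were not held by every subset of libraries: that of *Idi1* ended without control vehicle replicate 1, 3 or 4 or *Notch2tm1.1Ecan* vehicle replicate 2, 3 or 4 (log2 fold changes of 0.35 to 0.46, adjusted p = 0.0655 to 0.181), and that of *Fdps* without control vehicle replicate 1 or 2 or *Notch2tm1.1Ecan* vehicle replicate 2 or 4 (log2 fold changes of 0.56 to 0.68, adjusted p = 0.0717 to 0.123).

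Of the 12 genes from squalene synthesis to cholesterol and its transport, 7 were higher in *Notch2tm1.1Ecan* than in control cells with vehicle and 9 with TNFα. *Fdft1*, the squalene synthase, was higher by 0.22 ± 0.063 with vehicle and 0.50 ± 0.066 with TNFα. *Sqle* measured 79.5 ± 2.14 and 103 ± 2.78 CPM with vehicle, 48.8 ± 5.09 and 76.6 ± 4.85 CPM with TNFα, and the log2 fold changes were 0.38 ± 0.052 (SE), adjusted p = 1.56e-05, and 0.66 ± 0.073 (SE), adjusted p = 2.45e-07. *Hsd17b7* (chr1:169777093-169796813 of GRCm39) measured 24.5, 24.9, 23.8 and 23.2 CPM in control and 29.3, 34.9, 35.4 and 37.98 CPM in *Notch2tm1.1Ecan* cells with vehicle. With TNFα the 4 values were 16.6, 14.9, 13.4 and 16.2 against 24.9, 26.9, 24.4 and 22.8 CPM. The groups did not overlap under either treatment, and the log2 fold changes were 0.52 ± 0.078 (SE), adjusted p = 5.22e-05, and 0.73 ± 0.092 (SE), adjusted p = 1.75e-06. *Cyp51*, *Msmo1* and *Nsdhl*, which remove methyl groups from lanosterol, were higher in both treatments, by 0.38, 0.32 and 0.36 with vehicle and by 0.53, 0.43 and 0.59 with TNFα. The lanosterol synthase gene *Lss*, *Dhcr7* and the sterol transporter gene *Stard4* passed with TNFα only, by 0.40 ± 0.077, 0.45 ± 0.081 and 0.28 ± 0.075, but no difference between the treatments was called for them. *Tm7sf2* passed with vehicle (0.47 ± 0.13) and not with TNFα (0.35 ± 0.15). *Ebp* (0.21 ± 0.077 and 0.10 ± 0.084) and *Sc5d* (-0.054 ± 0.070 and 0.15 ± 0.065), late enzymes of the pathway, passed in neither. Of these calls, that of *Fdft1* with vehicle ended without control vehicle replicate 1 or 2 or *Notch2tm1.1Ecan* vehicle replicate 3 or 4 (log2 fold changes of 0.20 to 0.23, adjusted p = 0.0615 to 0.0934), that of *Tm7sf2* with vehicle without control vehicle replicate 1 or 2 or *Notch2tm1.1Ecan* vehicle replicate 2 or 3 (log2 fold changes of 0.41 to 0.46, adjusted p = 0.0507 to 0.0754), and that of *Stard4* with TNFα without control TNFα replicate 3 or *Notch2tm1.1Ecan* TNFα replicate 2 or 3 (log2 fold changes of 0.23 to 0.27, adjusted p = 0.0508 to 0.076).

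Of the 8 fatty acid genes, 5 were higher in *Notch2tm1.1Ecan* cells with vehicle (0.16 to 0.26) and 7 with TNFα (0.28 to 0.47), and none was lower, in DESeq2 also and at an unadjusted p under 0.05 also. *Fasn*, the fatty acid synthase gene, measured 239.9, 256, 221 and 238 CPM in control and 277, 286, 254 and 290.0 CPM in *Notch2tm1.1Ecan* cells with vehicle, and 141, 119.9, 114 and 161 against 184, 183, 192 and 169 CPM with TNFα. The vehicle groups overlapped by 1 value on each side and the TNFα groups did not overlap, with log2 fold changes of 0.21 ± 0.055 (SE), adjusted p = 0.0116, and 0.47 ± 0.092 (SE), adjusted p = 0.00327. *Scd1*, a stearoyl-CoA desaturase gene, measured 242, 228, 242 and 245 CPM in control and 273, 291, 280.1 and 305 CPM in *Notch2tm1.1Ecan* cells with vehicle, and 101, 93.7, 89.6 and 124 against 131, 129.8, 131 and 126 CPM with TNFα. Neither pair of groups overlapped, and the log2 fold changes were 0.26 ± 0.049 and 0.36 ± 0.081. *Acly*, *Fads1* and *Fads2* were higher in both treatments, by 0.20, 0.16 and 0.23 with vehicle and 0.33, 0.28 and 0.41 with TNFα. *Acaca*, the acetyl-CoA carboxylase that feeds *Fasn*, passed in neither (-0.073 ± 0.058 and 0.17 ± 0.099); without control TNFα replicate 4 it passed with TNFα (log2 fold change 0.28, adjusted p = 0.00802). The vehicle calls that single libraries ended were those of *Fasn*, without control vehicle replicate 3 or *Notch2tm1.1Ecan* vehicle replicate 2 or 4 (log2 fold changes of 0.18 to 0.19, adjusted p = 0.0529 to 0.0824), of *Fads1*, without control vehicle replicate 1, 3 or 4 or *Notch2tm1.1Ecan* vehicle replicate 2, 3 or 4 (log2 fold changes of 0.12 to 0.17, adjusted p = 0.0772 to 0.123), and of *Fads2*, without control vehicle replicate 1 (log2 fold change 0.19, adjusted p = 0.0927). In a fit to all 16 libraries the vehicle calls of *Fasn* (0.21, adjusted p = 0.108) and *Fads1* (0.16, adjusted p = 0.0862) also ended.

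**Figure D3:**
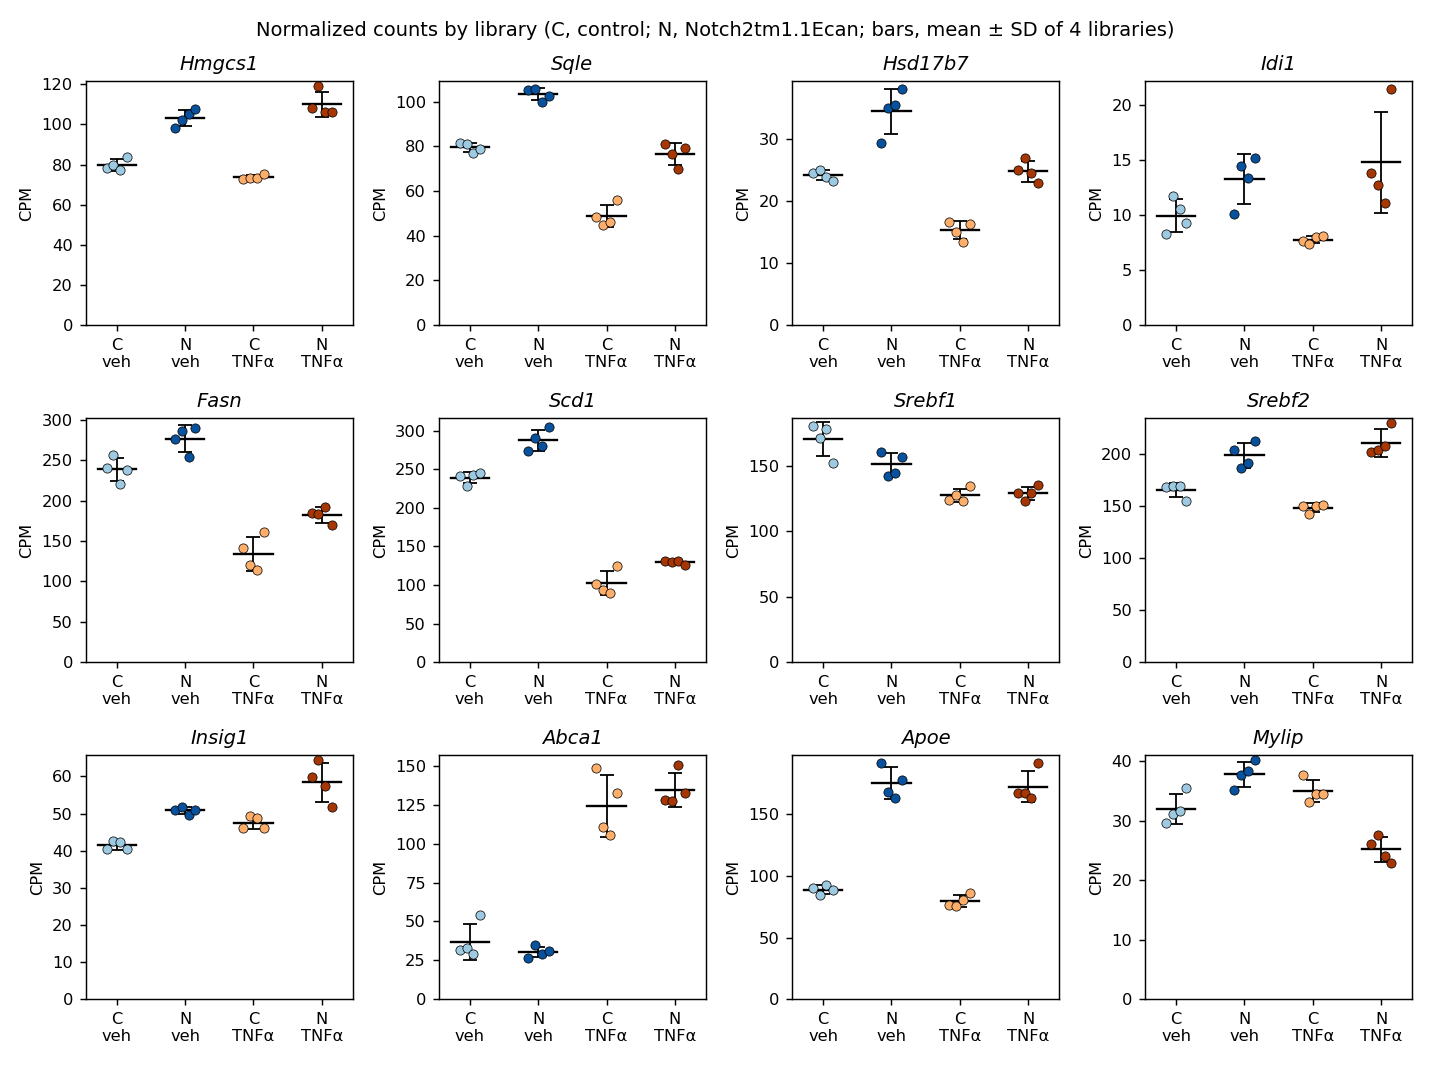
Normalized counts (CPM, linear axes from 0) of 12 genes in each library, with the mean ± SD of the 4 libraries of a group; C is control, N is *Notch2tm1.1Ecan*, and veh is vehicle. *Hmgcs1*, *Sqle*, *Hsd17b7*, *Srebf2*, *Insig1* and *Apoe* sit higher in N than in C under both treatments, *Abca1* lies at 54.1 CPM or less with vehicle and at 105 CPM or more with TNFα, and *Mylip* is highest in N with vehicle and lowest in N with TNFα.

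The SREBP genes differed from each other. *Srebf2*, which encodes SREBP2, the regulator of sterol genes (chr15:82031382-82093201 of GRCm39), measured 169, 169, 169.6 and 155 CPM in control and 204, 187, 191 and 212 CPM in *Notch2tm1.1Ecan* cells with vehicle. With TNFα it measured 150.3, 142, 149.6 and 151 CPM and 201, 204, 207 and 229.9 CPM. Every *Notch2tm1.1Ecan* library was above every control library of its treatment, by 0.26 ± 0.053 (SE), adjusted p = 0.00141, and 0.52 ± 0.061 (SE), adjusted p = 6.02e-07. *Insig1*, which retains SREBPs and is itself a target of SREBP, measured 40.4, 42.5, 42.4 and 40.4 CPM and 51.03, 51.7, 49.7 and 50.9 CPM with vehicle, and 46.1, 49.4, 48.9 and 46.02 and 59.8, 64.5, 57.5 and 51.8 CPM with TNFα. Here too the groups did not overlap, and the log2 fold changes were 0.29 ± 0.058 and 0.33 ± 0.068. *Srebf1*, for SREBP1, the regulator of fatty acid genes, measured 180.3, 171, 178 and 152 CPM and 161, 142, 145 and 156 CPM with vehicle, and 124, 128, 123 and 134 and 129, 123, 129 and 135 CPM with TNFα. Its groups overlapped and neither difference passed (-0.18 ± 0.059 (SE), adjusted p = 0.0588, and 0.030 ± 0.060 (SE), adjusted p = 0.833). Without control vehicle replicate 4, the lowest of its group, *Srebf1* was lower in *Notch2tm1.1Ecan* cells with vehicle (log2 fold change -0.24, adjusted p = 0.00225), and without *Notch2tm1.1Ecan* vehicle replicate 1 likewise (-0.20, adjusted p = 0.011), as with no filter beyond 1 count (-0.18, adjusted p = 0.0164). *Insig2* measured 38.1, 34.4, 38.4 and 38.95 CPM and 30.3, 31.5, 34.7 and 34.6 CPM with vehicle, and 48.5, 46.5, 46.7 and 45.3 and 48.2, 49.3, 42.9 and 29.2 CPM with TNFα, where the shallow *Notch2tm1.1Ecan* replicate 4 was the lowest of all 8. It passed in neither treatment (-0.19 ± 0.069 and -0.069 ± 0.097), and neither did *Scap*, the SREBP escort (0.0090 ± 0.051 and -0.031 ± 0.059).

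In the LXR pathway, *Apoe*, which encodes the lipoprotein that carries exported cholesterol (chr7:19430034-19434947 of GRCm39), gave the largest genotype difference of all 37 genes. It measured 89.9, 84.4, 92.6 and 88.8 CPM in control and 192, 168, 163 and 178 CPM in *Notch2tm1.1Ecan* cells with vehicle. With TNFα it measured 76.7, 75.7, 80.5 and 86.1 CPM and 168, 167, 163 and 191 CPM. Levels were 1.97-fold and 2.17-fold higher with no overlap, at log2 fold changes of 0.98 ± 0.056 (SE), adjusted p = 2.28e-11, and 1.12 ± 0.065 (SE), adjusted p = 1.64e-12. The cholesterol exporter gene *Abca1* measured 31.9, 33.1, 29.04 and 54.1 CPM and 26.7, 34.7, 29.2 and 31.1 CPM with vehicle, and 148, 111, 105 and 132 and 128, 127, 150.4 and 132 CPM with TNFα. The second exporter gene, *Abcg1*, measured 2.73, 1.91, 3.39 and 3.28 CPM and 3.47, 3.48, 3.46 and 3.75 CPM with vehicle, and 12.7, 9.62, 12.6 and 8.99 and 9.50, 8.79, 11.1 and 9.46 CPM with TNFα. *Abca1* overlapped between genotypes in both treatments and *Abcg1* with TNFα, and neither passed. Approximate 95% intervals of the log2 fold change were taken from the SE alone, without the degrees of freedom of the test. They were -0.72 to 0.15 and -0.073 to 0.34 for *Abca1* and -0.054 to 0.69 and -0.40 to 0.12 for *Abcg1*. *Nr1h3* measured 7.96, 6.88, 7.96 and 6.92 CPM and 9.64, 7.94, 7.02 and 8.72 CPM with vehicle, and 8.81, 8.42, 10.2 and 8.27 and 7.42, 6.22, 9.32 and 7.24 CPM with TNFα, overlapping in both (0.16 ± 0.12 and -0.21 ± 0.14). Of the 5 LXR pathway genes, *Apoe* alone was higher in *Notch2tm1.1Ecan* cells in both treatments.

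Between genotypes, the mean sums of marker lists of other cell types were higher in *Notch2tm1.1Ecan* cells, as those of the synthesis genes were. With TNFα the adipocyte sum was lower in each genotype, as the sterol and fatty acid sums were, while the macrophage sum was higher. The summed level of the 19 sterol genes was 649 to 657 CPM in control vehicle, 781 to 819 in *Notch2tm1.1Ecan* vehicle, 509 to 563 in control TNFα and 711 to 761 in *Notch2tm1.1Ecan* TNFα libraries. For the 8 fatty acid genes the ranges were 1663 to 1726, 1835 to 1966, 962 to 1189 and 1258 to 1379 CPM. The 8 markers of adipocytes, cells rich in fatty acid synthesis, summed to 129.8 to 151, 222 to 248, 72.4 to 93.8 and 118 to 146 CPM. Of these, 7 were detected (*Adipoq*, *Plin1*, *Cidec*, *Fabp4*, *Cfd*, *Retn* and *Pparg*) and *Lep* was at or under 3 counts in every library. With TNFα 7 of 7 were lower in each genotype, the call of *Retn* in control cells ending without control vehicle replicate 1 or 3 or control TNFα replicate 2 or 4, and in *Notch2tm1.1Ecan* cells 5 of 7 were higher with vehicle and 4 of 7 with TNFα. Of all genes tested, 20.9 and 21.9% were lower with TNFα in control and *Notch2tm1.1Ecan* cells. Between genotypes, 6.19% were higher with vehicle and 5.63% with TNFα. The part of the adipocyte markers in the results for the fatty acid and sterol genes was not tested.

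The 14 markers of macrophages, cells that express *Apoe*, *Abca1* and *Abcg1* strongly, summed to 76.5 to 81.6, 143 to 169, 87.8 to 103 and 181 to 208 CPM in the 4 groups in the same order, and 13, 14, 12 and 13 of them had over 3 counts in at least 1 library of the group. *Aif1* was at or under 3 counts in every control library, and *Cx3cr1* in every TNFα library. In *Notch2tm1.1Ecan* cells 10 of 14 were higher with vehicle and 12 of 13 with TNFα. Of all genes tested, 6.19% were higher between genotypes with vehicle and 5.63% with TNFα, which also stand beside the other marker counts below. For TNFα against vehicle, 4 of 13 were higher and 1 lower in control cells. In *Notch2tm1.1Ecan* cells 9 of 14 were higher and 1 lower, where 44.2 and 44.5% of all genes passed in the 2 genotypes. Single libraries left out ended the calls of *Tyrobp* in control and of *Ptprc*, *C1qb* and *Aif1* in *Notch2tm1.1Ecan* cells. The 6 endothelial markers summed to 8.08 to 10.9, 17.7 to 22.6, 10.5 to 13.1 and 18.3 to 25.8 CPM, and the 6 skeletal muscle markers to 20.8 to 26.01, 33.3 to 40.8, 7.97 to 17.6 and 15.99 to 38.97 CPM. With vehicle 4 of 6 endothelial and 3 of 6 muscle markers were higher in *Notch2tm1.1Ecan* cells, and with TNFα 3 of 6 endothelial markers were. Single libraries left out ended the vehicle calls of *Pecam1*, *Tie1* and *Mylpf* and the TNFα calls of *Cdh5* and *Kdr*. The 11 chondrocyte markers were lower in *Notch2tm1.1Ecan* cells, 11 of 11 in both treatments, beside 4.35 and 4.31% of all genes. The vehicle call of *Hapln1* ended without control vehicle replicate 1, 2, 3 or 4 or *Notch2tm1.1Ecan* vehicle replicate 2, 3 or 4 (adjusted p = 0.0537 to 0.0992). That of *Matn3* ended without control vehicle replicate 3. The TNFα call of *Sox9* ended without control TNFα replicate 2 or any *Notch2tm1.1Ecan* TNFα library (adjusted p = 0.0708 to 0.133). That of *Acan* ended without *Notch2tm1.1Ecan* TNFα replicate 1 or 4. The part of these lists in the genotype and TNFα results, those of *Apoe*, *Abca1* and *Abcg1* included, was not tested.

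**Figure D4:**
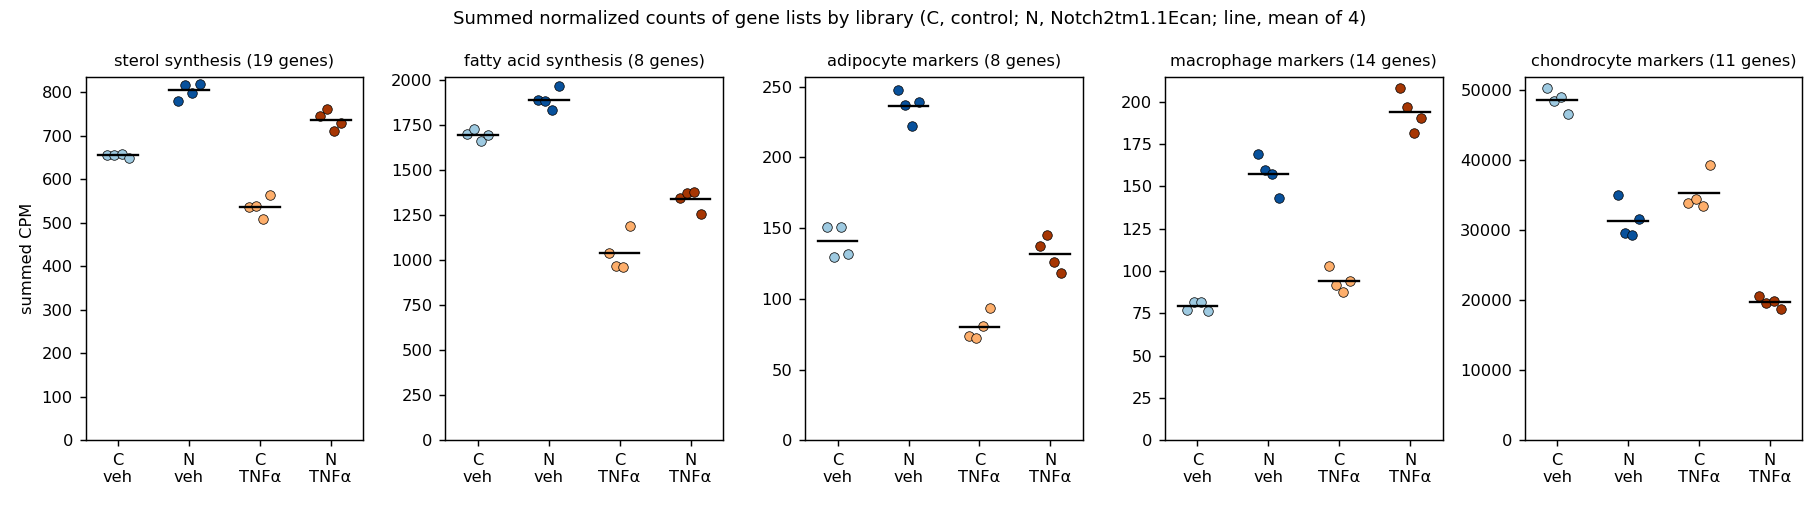
Summed CPM of 5 gene lists in each library, with the mean of the 4 libraries of a group as a line (axes from 0; C is control, N is *Notch2tm1.1Ecan*, veh is vehicle). The sterol, fatty acid, adipocyte and macrophage sums are higher in N than in C under both treatments with no overlap, the first 3 are lower with TNFα in each genotype, and the chondrocyte sum is lower in N.

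TNFα was compared with vehicle in each genotype. In control cells 17 of the 37 genes were lower and 7 higher, where 44.2% of all 19338 genes tested passed (20.9% lower, 23.3% higher). In *Notch2tm1.1Ecan* cells 15 were lower and 9 higher, where 44.5% of 19633 genes passed (21.9% lower, 22.6% higher). The median log2 fold change over the 37 genes was -0.11 in control and -0.073 in *Notch2tm1.1Ecan* cells, beside 0.039 and 0.026 over all genes. A change of 1 or more on the log2 scale was passed by 3 members in each genotype (*Scd1*, *Abca1* and *Abcg1*), beside 11.8 and 13.9% of all genes. The groups did not overlap in 26 and 18 of the 37 genes, against 42.2 and 40.9% of all genes. Both comparisons together, which share no library, had 14 genes lower in both (37.8% of the 37, beside 18.1% of 18780 genes) and 6 higher in both (16.2%, beside 18.8%). With both control replicates numbered 4 left out, 19 were lower and 7 higher in control cells, and without *Notch2tm1.1Ecan* TNFα replicate 4, 15 were lower and 8 higher in *Notch2tm1.1Ecan* cells.

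**Figure D5:**
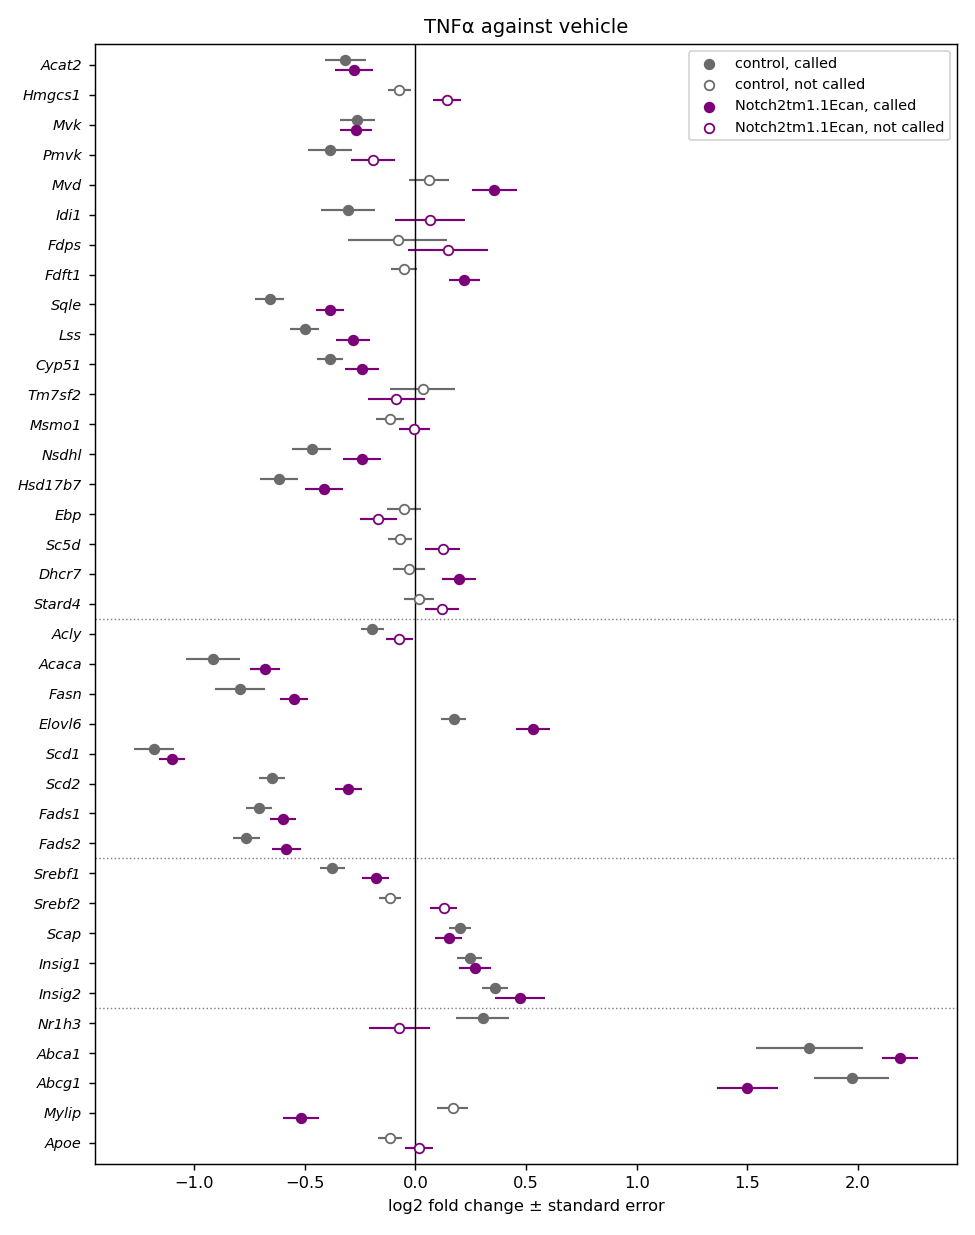
Log2 fold change of TNFα against vehicle ± SE for the 37 genes in control (grey) and *Notch2tm1.1Ecan* cells (purple), from 4 libraries per group; filled points passed the test and open points did not. *Scd1*, *Acaca*, *Fads2*, *Fasn*, *Fads1* and *Scd2* lie left of 0 in both genotypes and *Abca1* and *Abcg1* far to the right.

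The fatty acid genes carried the largest falls with TNFα: 7 of 8 were lower in control cells (-1.18 to -0.19) and 6 of 8 in *Notch2tm1.1Ecan* cells (-1.1 to -0.30). *Scd1*, with the library values given above, fell from 239 ± 7.49 to 102 ± 15.5 CPM in control and from 287 ± 14.01 to 129 ± 2.1 CPM in *Notch2tm1.1Ecan* cells (SD, n = 4). Its log2 fold changes were -1.18 ± 0.092 (SE), adjusted p = 1.56e-06, and -1.1 ± 0.060 (SE), adjusted p = 1.18e-14. *Acaca* measured 138, 136, 124 and 145 CPM with vehicle and 71.5, 62.9, 59.2 and 85.8 CPM with TNFα in control cells. In *Notch2tm1.1Ecan* cells it measured 124, 131, 120.1 and 140.1 and 78.1, 80.8, 79.5 and 70.4 CPM. All TNFα libraries were below all vehicle libraries, with log2 fold changes of -0.91 ± 0.12 (SE), adjusted p = 0.000383, and -0.68 ± 0.068 (SE), adjusted p = 2.98e-09. *Fads1*, the delta-5 desaturase, measured 187, 192, 182 and 175 CPM and 108, 98.7, 108 and 123 CPM in control cells and 207, 205, 203 and 208 and 128, 136, 129.5 and 131 CPM in *Notch2tm1.1Ecan* cells, again without overlap. *Fasn* fell by 0.79 ± 0.11 and 0.55 ± 0.063 on the log2 scale, and *Fads1*, *Fads2* and *Scd2* fell in both genotypes. *Acly* was lower in control cells (-0.19 ± 0.051) and did not pass in *Notch2tm1.1Ecan* cells (-0.073 ± 0.060). Within the control TNFα group, replicate 4 had the highest value for *Acly*, *Acaca*, *Fasn*, *Scd1*, *Scd2*, *Fads1* and *Fads2*. The 7 detected adipocyte markers were lower with TNFα in both genotypes too, as given above, and their part in these falls was not tested.

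*Elovl6*, which lengthens palmitate, was the exception among the fatty acid genes. It measured 46.6, 49.9, 46.1 and 50.7 CPM with vehicle and 53.7, 51.2, 52.9 and 53.7 CPM with TNFα in control cells, and 40.1, 46.6, 50.6 and 52.4 and 64.8, 66.9, 68.7 and 65.4 CPM in *Notch2tm1.1Ecan* cells. It was higher with TNFα in both, by 0.17 ± 0.056 (SE), adjusted p = 0.015, and by 0.53 ± 0.077 (SE), adjusted p = 1.91e-06. The control call ended without control vehicle replicate 1 or 3 (log2 fold changes of 0.14 to 0.15, adjusted p = 0.062 to 0.0776), and in a fit to all 16 libraries (0.16, adjusted p = 0.054).

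Of the 19 sterol genes, 9 were lower and 0 higher with TNFα in control cells, at an unadjusted p under 0.05 also, and DESeq2 called 8 lower and 0 higher. Over all genes, 49.8% were under that unadjusted p and DESeq2 called 41.3%. In *Notch2tm1.1Ecan* cells 7 were lower and 3 higher. *Sqle* fell by 0.66 ± 0.064 in control and by 0.38 ± 0.063 in *Notch2tm1.1Ecan* cells on the log2 scale, and *Hsd17b7* fell by 0.62 ± 0.084 and 0.41 ± 0.086. *Acat2*, *Mvk*, *Lss*, *Cyp51* and *Nsdhl* were also lower in both genotypes, and *Pmvk* and *Idi1* in control cells. *Mvd* (0.36 ± 0.10), *Fdft1* (0.22 ± 0.069) and *Dhcr7* (0.20 ± 0.077) were higher in *Notch2tm1.1Ecan* cells. *Hmgcs1*, the gene with the SRE word shown above, passed in neither (-0.072 ± 0.051 (SE), adjusted p = 0.276, and 0.14 ± 0.064 (SE), adjusted p = 0.0705), and without *Notch2tm1.1Ecan* TNFα replicate 4 it was higher in *Notch2tm1.1Ecan* cells (0.17, adjusted p = 0.0261), as in a fit to all 16 libraries (0.14, adjusted p = 0.0355) and with edgeR's own expression filter (0.16, adjusted p = 0.0248).

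Calls of sterol genes that ended without 1 library were, in control cells, *Idi1*, without control vehicle replicate 2 or 3 or control TNFα replicate 1, 2 or 3 (log2 fold changes of -0.32 to -0.22, adjusted p = 0.0719 to 0.184), and *Mvk*, without control vehicle replicate 2 (log2 fold change -0.20, adjusted p = 0.0524). In *Notch2tm1.1Ecan* cells they were *Acat2*, without *Notch2tm1.1Ecan* TNFα replicate 3 (log2 fold change -0.22, adjusted p = 0.0635), *Cyp51*, without *Notch2tm1.1Ecan* vehicle replicate 2 or *Notch2tm1.1Ecan* TNFα replicate 3 (log2 fold changes of -0.20 to -0.18, adjusted p = 0.0647 to 0.0673), *Nsdhl*, without *Notch2tm1.1Ecan* vehicle replicate 3 or *Notch2tm1.1Ecan* TNFα replicate 1 or 3 (log2 fold changes of -0.24 to -0.17, adjusted p = 0.05 to 0.127), *Fdft1*, without *Notch2tm1.1Ecan* vehicle replicate 2 (log2 fold change 0.18, adjusted p = 0.0551), and *Dhcr7*, without *Notch2tm1.1Ecan* vehicle replicate 1 or 2 or *Notch2tm1.1Ecan* TNFα replicate 2, 3 or 4 (log2 fold changes of 0.16 to 0.19, adjusted p = 0.0576 to 0.0953). The falls of *Sqle*, *Lss* and *Hsd17b7* passed in both genotypes whichever single library was left out. The call of *Idi1* also ended under DESeq2 (adjusted p = 0.0586) and in a fit to all 16 libraries (adjusted p = 0.0968), and that of *Dhcr7* under DESeq2 (adjusted p = 0.056) and with no filter beyond 1 count (adjusted p = 0.0522).

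Among the regulators, *Srebf1* was lower with TNFα in control (-0.38 ± 0.056 (SE), adjusted p = 8.14e-06) and in *Notch2tm1.1Ecan* cells (-0.18 ± 0.060 (SE), adjusted p = 0.0159). The latter call ended without *Notch2tm1.1Ecan* vehicle replicate 4 or *Notch2tm1.1Ecan* TNFα replicate 2 (log2 fold changes of -0.17 to -0.16, adjusted p = 0.0618 to 0.0692). *Insig1* was higher in both (0.24 ± 0.057 and 0.27 ± 0.071), and so was *Insig2* (0.36 ± 0.060 (SE), adjusted p = 3.41e-05, and 0.47 ± 0.11 (SE), adjusted p = 0.00322). *Scap* was higher by 0.20 ± 0.048 and 0.15 ± 0.060, and its call in *Notch2tm1.1Ecan* cells ended without *Notch2tm1.1Ecan* vehicle replicate 2, 3 or 4 or *Notch2tm1.1Ecan* TNFα replicate 1, 2, 3 or 4 (log2 fold changes of 0.13 to 0.17, adjusted p = 0.0557 to 0.126), and also with RLE normalization (adjusted p = 0.0529) and no filter beyond 1 count (adjusted p = 0.0818). *Srebf2* did not pass in either genotype (-0.11 ± 0.049 and 0.13 ± 0.060). Without control vehicle replicate 4 it was lower in control cells (-0.15, adjusted p = 0.0112), as without control TNFα replicate 4 (-0.14, adjusted p = 0.0295), and without *Notch2tm1.1Ecan* vehicle replicate 1 it was higher in *Notch2tm1.1Ecan* cells (0.15, adjusted p = 0.0355). It also passed as lower in control cells with RLE normalization (-0.13, adjusted p = 0.0468), and with edgeR's own expression filter it passed in control (-0.12, adjusted p = 0.0482) and in *Notch2tm1.1Ecan* cells (0.15, adjusted p = 0.043).

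The LXR target genes *Abca1* and *Abcg1* gave the largest rises with TNFα. *Abca1* (chr4:53030787-53159900 of GRCm39) rose 3.44-fold in control and 4.56-fold in *Notch2tm1.1Ecan* cells, at log2 fold changes of 1.78 ± 0.24 (SE), adjusted p = 0.0011, and 2.19 ± 0.081 (SE), adjusted p = 1.63e-17. Over the alternative fits, single libraries left out included, these values were 1.68 to 2.02 and 2.12 to 2.26. The interaction of genotype and TNFα did not pass for *Abca1* (0.41). *Abcg1* rose 3.93-fold and 2.84-fold (1.97 ± 0.17 (SE), adjusted p = 3.49e-09, and 1.50 ± 0.14 (SE), adjusted p = 5.04e-10). All 8 TNFα libraries were above all 8 vehicle libraries for both genes, although control vehicle replicate 4 was the highest vehicle library for *Abca1* at 54.1 CPM. *Apoe* passed in neither genotype (-0.11 ± 0.054 and 0.018 ± 0.063), but without control TNFα replicate 4 it was lower in control cells (-0.16, adjusted p = 0.0139). *Nr1h3* passed in control cells (0.30 ± 0.12 (SE), adjusted p = 0.0433) and not in *Notch2tm1.1Ecan* cells (-0.072 ± 0.14). The call in control cells ended without control vehicle replicate 1, 2, 3 or 4 or control TNFα replicate 1 or 3 (log2 fold changes of 0.23 to 0.33, adjusted p = 0.0519 to 0.16), and also under DESeq2, RLE normalization, no filter beyond 1 count and a fit to all 16 libraries.

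The genotype by TNFα interaction asks whether the TNFα response differs between genotypes, on the same 16 libraries as the comparisons above, and 1 of the 37 genes passed, *Mylip*, where 0.474% of all 21321 genes tested did. *Mylip* encodes the ubiquitin ligase IDOL, an LXR target that marks lipoprotein receptors for degradation (chr13:45543215-45565501 of GRCm39). It measured 29.5, 31.1, 31.7 and 35.6 CPM in control and 35.1, 37.6, 38.3 and 40.1 CPM in *Notch2tm1.1Ecan* cells with vehicle. With TNFα it measured 37.6, 33.1, 34.5 and 34.5 CPM and 26.1, 27.6, 24.1 and 22.8 CPM. The 4 *Notch2tm1.1Ecan* TNFα libraries were below the other 12, and the control groups of both treatments overlapped. The interaction was -0.68 ± 0.11 (SE), adjusted p = 0.000521, and it passed whichever single library was left out (largest adjusted p over the alternatives 0.00388), though its size is below 1, a size that 0.0469% of all genes passed. TNFα lowered *Mylip* in *Notch2tm1.1Ecan* cells (-0.52 ± 0.080 (SE), adjusted p = 4.76e-06) and its estimate in control cells was 0.17 ± 0.071 (SE), adjusted p = 0.0569, which passed without control vehicle replicate 4 (0.22, adjusted p = 0.0122) or control TNFα replicate 2 (0.20, adjusted p = 0.0419). Between genotypes it was higher in *Notch2tm1.1Ecan* cells with vehicle (0.24 ± 0.071 (SE), adjusted p = 0.0284) and lower with TNFα (-0.44 ± 0.078 (SE), adjusted p = 0.000267); the vehicle call ended without control vehicle replicate 1, 2 or 3 or *Notch2tm1.1Ecan* vehicle replicate 2, 3 or 4 (log2 fold changes of 0.20 to 0.24, adjusted p = 0.0686 to 0.145).

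For the sterol and fatty acid genes the interaction was positive in 16 of 19 (median 0.21) and 8 of 8 (median 0.21), and none passed, beside a median of -0.01 over all genes. At an unadjusted p under 0.05, 6 sterol genes, 3 fatty acid genes and 2 regulators were higher and 0 lower, and 2 LXR pathway genes, *Mylip* and *Abcg1*, were lower; 8.71% of all genes were under that p. DESeq2, which called 0.966% of all genes, called 2 of the synthesis genes, *Scd2* and *Elovl6*, which gave 0.35 ± 0.091 (SE), adjusted p = 0.0782, and 0.36 ± 0.098 (SE), adjusted p = 0.1, in the edgeR test. *Scd2* passed without control TNFα replicate 4 (0.43, adjusted p = 0.00545) or *Notch2tm1.1Ecan* TNFα replicate 4 (0.41, adjusted p = 0.0103). *Sqle* (0.28 ± 0.092 (SE), adjusted p = 0.228) passed without control TNFα replicate 4 (0.36, adjusted p = 0.0404). In edgeR fits of all 16 libraries, *Scd2* also passed with RLE normalization (0.36, adjusted p = 0.0404) and with no filter beyond 1 count (0.34, adjusted p = 0.0148), and *Elovl6* with no filter beyond 1 count (0.35, adjusted p = 0.0343).

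Other genes of these pathways were counted from 5 further lists. Their counts are to be set beside the 44.2 and 44.5% of all genes that passed with TNFα in control and *Notch2tm1.1Ecan* cells, and the 10.5 and 9.94% that passed between genotypes with vehicle and with TNFα. Of 16 genes of sterol hydroxylation, esterification and uptake, 7 were higher and 6 lower with TNFα in control cells, and 8 and 6 in *Notch2tm1.1Ecan* cells. *Ch25h*, which makes 25-hydroxycholesterol, a ligand of LXR that also retains SREBPs, gave the largest rise (4.17 ± 0.49 (SE), adjusted p = 0.000566, and 5.78 ± 0.11 (SE), adjusted p = 8.8e-25). It measured 0.724, 1.76, 1.11 and 5.95 CPM in control vehicle and 42.3, 42.8, 50.3 and 33.6 CPM in control TNFα libraries, so vehicle replicate 4 stood above the other 3 vehicle libraries and below all TNFα libraries. Without that library the log2 fold change in control cells was 5.23 (adjusted p = 3.69e-08). It was also higher in *Notch2tm1.1Ecan* than in control cells with TNFα (0.49 ± 0.089 (SE), adjusted p = 0.000592). *Lrp8*, a lipoprotein receptor gene, gave the largest fall with TNFα (-1.03 ± 0.10 and -1.18 ± 0.093). Between genotypes, *Cyp27a1* and *Vldlr* were lower in *Notch2tm1.1Ecan* cells with vehicle, and with TNFα *Ch25h* and *Lipa* were higher and *Vldlr* lower. The vehicle call of *Vldlr* ended without control vehicle replicate 1 or 2. Genes named from these lists gave the largest rise and fall or, chosen after their values were seen, stand behind counts of 3 or fewer.

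Of 20 further fatty acid and glycerolipid genes, 4 were higher and 9 lower with TNFα in control cells, and 3 and 9 in *Notch2tm1.1Ecan* cells. *Thrsp*, a lipogenic gene, gave the largest fall (-2.31 ± 0.62 and -2.69 ± 0.48) and *Acacb*, the mitochondrial acetyl-CoA carboxylase gene, the largest rise (1.53 ± 0.14 and 1.80 ± 0.13). Without control TNFα replicate 4 the value of *Thrsp* in control cells was -3.96 (adjusted p = 0.000155). Between genotypes 2 of the 20 were higher with vehicle (*Acss2* and *Elovl1*) and 3 with TNFα (those and *Tecr*), and *Elovl7* was lower with TNFα. The vehicle call of *Elovl1* ended when any 1 of 6 libraries was left out, and the TNFα calls of *Tecr* when any 1 of 4 was left out and of *Acss2* without control TNFα replicate 2. Of 10 genes of SREBP processing and turnover, 2 were higher and 3 lower with TNFα in control cells and 3 and 3 in *Notch2tm1.1Ecan* cells. *Sec23a*, for the coat protein of the vesicles that carry SCAP and SREBP to the Golgi, gave the largest fall (-0.96 ± 0.064 and -0.94 ± 0.061), and *Rnf139*, an ubiquitin ligase gene, the largest rise (0.66 ± 0.085 and 0.66 ± 0.13). Between genotypes, *Paqr3* was lower in *Notch2tm1.1Ecan* cells in both treatments and *Rnf145* was higher with TNFα, a call that ended when any 1 of 6 libraries was left out.

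Of 13 further LXR pathway genes 11 could be tested, *Abcg5* and *Abcg8* being at or under 3 counts in every library. With TNFα 7 were higher and 2 lower in each genotype. *Abca7* gave the largest rise (0.97 ± 0.082 and 1.1 ± 0.086) and the lipase gene *Lpl* the largest fall (-0.65 ± 0.053 and -0.52 ± 0.059). Between genotypes 2 of the 11 were higher with vehicle, and 2 were higher and 1 lower with TNFα. *Lpl* was higher in *Notch2tm1.1Ecan* cells with vehicle (0.67 ± 0.050) and with TNFα (0.81 ± 0.062). *Ptk2b* was higher in both treatments too, and *Arl4c* was lower with TNFα. The vehicle call of *Ptk2b* ended without control vehicle replicate 3 or 4 or *Notch2tm1.1Ecan* vehicle replicate 3 or 4. Of 11 genes of the isoprenoid branch, which leaves the sterol pathway at farnesyl diphosphate, 2 were higher and 3 lower with TNFα in control cells and 1 and 5 in *Notch2tm1.1Ecan* cells. The largest rises were those of *Ggps1*, the geranylgeranyl diphosphate synthase, in control cells (0.23 ± 0.062) and of *Pggt1b*, for a subunit of a geranylgeranyl transferase, in *Notch2tm1.1Ecan* cells (0.32 ± 0.086). The largest falls were those of *Fnta*, for a subunit of the farnesyl transferase (-0.32 ± 0.060 in control cells), and of *Pdss1*, which makes the side chain of ubiquinone (-0.57 ± 0.17 in *Notch2tm1.1Ecan* cells), whose call ended without *Notch2tm1.1Ecan* TNFα replicate 3 (-0.44, adjusted p = 0.0504). Between genotypes 1 of the 11 passed, *Rabggtb*, which was lower in *Notch2tm1.1Ecan* cells with TNFα. Of the genes with a promoter entry, the CCAAT word was in 4 of 9 of the isoprenoid branch, 1 of 7 of SREBP processing, 13 of 17 further fatty acid and glycerolipid genes, 5 of 10 further LXR genes and 9 of 12 of sterol hydroxylation, esterification and uptake, beside 41.1% of all genes in the table.

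Some members share sequence with other places in the genome, so reads could be split between copies. By alignment of transcripts to GRCm39 over at least 300 bases at 90% identity or more, *Fdps* had 5 further copies (up to 98.7% identity), *Idi1* 2 (99.3%), *Mvk* 5 (90.7%), and *Acaca* (99.1%), *Fdft1* (97.0%) and *Fads1* (91.3%) 1 each, and their levels are uncertain to that extent. Genes on the opposite strand overlap 28.33% of the exon bases of *Cyp51*, 24.78% of *Fdft1*, 20.48% of *Mvd* and 15.78% of *Fads1*, and *Vps51* on the same strand overlaps 10.82% of *Tm7sf2*. The kit marks strand, but whether the counting used it is not given in the sources used here, so overlapping reads cannot be told apart for these genes.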

How the data were processed

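RNA from 16 cultures was made into stranded mRNA libraries, pooled and sequenced in paired 75-base reads. The authors aligned the reads with HISAT2, counted them per gene with htseq-count and deposited raw counts per gene, which are used here as they stand. Per the labels the build was GRCm38 with HISAT2 2.1.0, whereas the study's methods name a later build and release, and 2147 gene identifiers are of the newer style. Gene coordinates are given on GRCm39 and promoters on GRCm38.p6. The strand setting of the counting is not given in the sources used here. The 5 counter lines that name no gene (8.811 to 12.138% of reads per library) were left out. The 665 identifiers without a name (0.0182% of counts) were kept in the tests.

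Groups came from the titles, 4 libraries each. Genes with at least 10 summed counts were fitted with edgeR 4.0.16 (R 4.3.3; TMM normalization, robust quasi-likelihood F-test), on the 8 libraries of each 2-group comparison and on all 16 for the interaction. A gene passed at a Benjamini-Hochberg adjusted p under 0.05 over all genes tested, with no fold cutoff. All adjusted p-values in the text come from this test unless DESeq2 1.42.0 is named. Each SE was derived from the log2 fold change and the F statistic of the test. CPM values are TMM-normalized over the 16 libraries. A level of 3 counts or fewer was taken as the floor. Libraries of one group differed by a chi-square of 2.076 to 14.608 per degree of freedom, more than sampling noise. The fit was tested on simulated counts: with 200 genes changed by 1 on the log2 scale, 98.5% were recovered for TNFα in control cells (19346 genes) and 89% for the interaction (20994 genes). The changed genes were well counted ones, all genes had the same dispersion, and no library was made to stand apart. A change of 1 is larger than any interaction estimate of the 37 members, so recovery at their sizes was not measured. Transcripts were aligned with minimap2 2.31.

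Alternatives were DESeq2, RLE normalization, other filters and thresholds, a replicate block, a fit to all 16 libraries and leaving out single libraries. The members and lists were chosen with earlier results of these data known. Values in every library are given for members that passed in the interaction, for the 3 largest rises and 3 largest falls among members that passed in each 2-group comparison, for *Srebf1*, *Srebf2*, *Insig1*, *Insig2* and for all 5 LXR pathway members, and other members are given by means, ranges and counts. From each further list of the pathway the largest rise and fall with TNFα are named.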

Additional observations from a re-analysis of the deposited data

Results flagged for a closer look

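In the 148 sets of 4 libraries tested (37 genes in 4 groups), 8 had a highest or lowest library far from the others by Dixon's test, and chance gives about 1 in 20 such sets. In control vehicle replicate 4, *Srebf2* was low at 155 CPM (others 169 to 170 CPM) and *Abca1* was high at 54.1 CPM (others 29.0 to 33.1 CPM); that library also had 1133 CPM of TNFα response genes. In *Notch2tm1.1Ecan* vehicle replicate 1, *Mvd* was high at 21.5 CPM (others 15.9 to 16.5 CPM) and *Fads2* at 182 CPM (others 150 to 154 CPM). *Fdps* was low at 2.88 CPM in *Notch2tm1.1Ecan* vehicle replicate 3 (others 4.21 to 4.45 CPM), and *Abcg1* was high at 3.75 CPM in replicate 4 of that group (others 3.46 to 3.48 CPM). In *Notch2tm1.1Ecan* TNFα replicate 4, the shallowest library, *Mvk* was low at 30.3 CPM (others 30.9 to 31.1 CPM) and *Apoe* was high at 191 CPM (others 163 to 168 CPM).

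The response of *Mylip* to TNFα differed between genotypes by edgeR's quasi-likelihood test of the interaction, with a log2 difference of -0.68 (Benjamini-Hochberg adjusted p = 0.000521).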

How the results depend on the processing

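Across 2124 recomputed values, 1899 kept their direction and side of the threshold, 179 no longer passed (90 of them under a fold cutoff of 1 on the log2 scale), 38 newly passed and 8 changed sign. With that fold cutoff, 3 genes passed in each TNFα comparison, 0 between genotypes with vehicle, 1 with TNFα and 0 in the interaction. The interaction count was 2 at an adjusted p under 0.1 and with RLE normalization, and 3 with DESeq2, with no filter beyond 1 count and without both control libraries numbered 4. Leaving out single libraries gave 21 to 26 and 19 to 24 genes for TNFα in control and *Notch2tm1.1Ecan* cells, 14 to 25 and 26 to 28 between genotypes with vehicle and TNFα, and 1 to 3 in the interaction. The signs that changed belonged to values that did not pass, over leave-one-out ranges of -0.226 to 0.0337 (*Nr1h3*) and -0.0171 to 0.0667 (*Apoe*) for TNFα in *Notch2tm1.1Ecan* cells, of -0.105 to 0.0109 (*Sc5d*), -0.0824 to 0.0494 (*Elovl6*) and -0.0237 to 0.0212 (*Scap*) between genotypes with vehicle, and of -0.153 to 0.0174 (*Insig2*) with TNFα. The cause was not tested. The values of *Fdps* rest on 930 counts in all 16 libraries, and its reads could be split among 5 further copies.

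Replicate numbers gave no sign of pairing. Deviations of libraries with the same number correlated by -0.164 to 0.0971, and those with different numbers by -0.145 to 0.131. With 4 libraries per group, these values do not settle whether libraries with the same number shared an origin. A replicate block gave 22, 23, 21, 27 and 1 genes in the order above, against 24, 24, 21, 27 and 1 without it; *Idi1* and *Nr1h3* in control cells (adjusted p = 0.0625 and 0.0522) and *Scap* in *Notch2tm1.1Ecan* cells (0.0519) no longer passed for TNFα.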
